A study of Mus musculus with 4 samples.

Results

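The 8 genes described here, KNDC1, CADPS2, CADPS, DNER, CNTN1, CHGB, SCG2 and VSNL1, are genes of signalling, secretion and cell contact in differentiating neurons, and they were followed in the anterior and posterior lobes of the mouse cerebellum on postnatal day 7. They were selected by name, with the lobe difference of KNDC1 and CADPS2 on these same arrays already known. Every probe that the array table assigns to one of the 8 symbols was taken, which gave 13 probes of 45281 on the array, and 8 symbols of 30854. Because the lobe contrast of these arrays chose the members, their differences between the lobes are given as a description, with no test drawn from them.

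The study dealt with the transcription factor Tlx3 in granule neuron progenitors, and the arrays were made to find genes that differ between the anterior and posterior lobes on postnatal day 7. Total RNA of untreated Swiss mice was hybridised to Illumina MouseWG-6 arrays of version 2, with 2 arrays for the anterior cerebellar lobe and 2 for the posterior cerebellar lobe. The lobes were dissected whole, so each array averages all cell types of its tissue, and both groups share the strain, the age and the absence of treatment. The labels do not say whether the replicates came from separate animals or from pooled litters, so that every p-value here measures the spread between these samples, which may be technical. A probe was called detected on an array when the scanner software gave it a detection p-value under 0.05, and between 46.5% and 47.6% of probes were detected on each array. Median intensity lay between 110.2 and 129.6, and the replicates stood further apart in the anterior lobe (SD of the log2 difference between arrays 0.318) than in the posterior lobe (0.203). With 2 arrays against 2, an exact permutation test of 1 gene cannot give a p-value below 0.333, and the number of arrays limits the precision of all values.

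Granule neurons are the small excitatory neurons of the cerebellum and the most numerous neurons of the brain. Their progenitors divide in the external granular layer at the surface of the cerebellum after birth, leave the cell cycle, extend parallel fibres and migrate inward past the Purkinje cells to the internal granular layer, where they acquire the ion channels, receptors and secretory apparatus of a mature neuron. KNDC1, also called very-KIND, is a Ras guanine nucleotide exchange factor of dendrites that binds the microtubule protein MAP2 and limits dendrite growth in cultured granule cells. CADPS and CADPS2, the CAPS proteins, prime dense core vesicles for release, and CADPS2 is known for its part in the secretion of the neurotrophins BDNF and NT-3 in the cerebellum. CHGB and SCG2 are granins, the acidic cargo proteins that fill these vesicles. DNER and CNTN1 are surface proteins, both described as ligands of Notch receptors, and VSNL1 is a calcium sensor protein of neurons.

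On the tissue itself, 9 of 10 genes of a cerebellum identity list were detected on all 4 arrays, among them EN2, ZIC1 and CBLN1, whereas 7 of 8 forebrain identity genes were detected on no array. The name of the gene set was only partly borne out by markers of mature granule neurons. Of the 21 granule neuron maturation genes with a symbol on the array, 16 had a probe detected on all 4 arrays and 2, FAT2 and CBLN3, had none detected on any array. GABRA6, the receptor subunit that marks the mature granule cell, was detected on only 2 arrays, at intensities of 111.0 to 150.4. Several of the 8 members are also expressed in Purkinje cells and other neurons, and the arrays cannot assign their signal to 1 cell type.

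All 8 members lie on different stretches of the genome, and 4 of their promoters are shown, those of KNDC1 and CADPS2 because these genes led the selection and those of the granins because both hold the same response element. RefSeq on the mouse assembly GRCm38.p6 places KNDC1 at chr7:139894696-139941540, CADPS2 at chr6:23262773-23841175, CADPS at chr14:12372560-12823339, DNER at chr1:84369839-84696221, CNTN1 at chr15:92051152-92341967, CHGB at chr2:132781642-132795079, SCG2 at chr1:79434366-79440026 and VSNL1 at chr12:11325257-11436578, all as protein-coding genes. The windows below run from 250 bases before to 50 bases from the transcription start on, 5′ to 3′ on the strand of the gene. They are chr7:139894446-139894745 on the plus strand for KNDC1, chr6:23839372-23839671 on the minus strand for CADPS2, chr2:132781392-132781691 on the plus strand for CHGB and chr1:79439977-79440276 on the minus strand for SCG2. The start used for CADPS2 lies inside the gene span given above, not at its edge. Capitals mark the cAMP response element TGACGTCA and the GC box GGGCGG, the latter searched on both strands so that it also appears as CCGCCC.
KNDC1: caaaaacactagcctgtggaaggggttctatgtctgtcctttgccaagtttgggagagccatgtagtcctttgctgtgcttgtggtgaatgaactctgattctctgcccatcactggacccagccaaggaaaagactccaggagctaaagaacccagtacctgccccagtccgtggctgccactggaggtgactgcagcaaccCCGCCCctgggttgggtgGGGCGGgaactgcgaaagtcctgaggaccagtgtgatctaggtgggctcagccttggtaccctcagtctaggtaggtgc
CADPS2: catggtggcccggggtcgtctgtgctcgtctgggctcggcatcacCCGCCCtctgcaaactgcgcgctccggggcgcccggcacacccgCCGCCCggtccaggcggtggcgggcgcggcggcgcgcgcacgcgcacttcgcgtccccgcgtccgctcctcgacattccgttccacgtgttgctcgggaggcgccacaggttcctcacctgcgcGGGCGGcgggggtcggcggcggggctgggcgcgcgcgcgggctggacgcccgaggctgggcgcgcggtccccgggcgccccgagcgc
CHGB: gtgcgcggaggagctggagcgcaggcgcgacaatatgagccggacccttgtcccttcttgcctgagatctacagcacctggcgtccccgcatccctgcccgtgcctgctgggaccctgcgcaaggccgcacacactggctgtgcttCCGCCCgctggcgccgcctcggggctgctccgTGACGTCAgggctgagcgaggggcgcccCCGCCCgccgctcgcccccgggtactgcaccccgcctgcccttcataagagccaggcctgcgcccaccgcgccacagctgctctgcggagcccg
SCG2: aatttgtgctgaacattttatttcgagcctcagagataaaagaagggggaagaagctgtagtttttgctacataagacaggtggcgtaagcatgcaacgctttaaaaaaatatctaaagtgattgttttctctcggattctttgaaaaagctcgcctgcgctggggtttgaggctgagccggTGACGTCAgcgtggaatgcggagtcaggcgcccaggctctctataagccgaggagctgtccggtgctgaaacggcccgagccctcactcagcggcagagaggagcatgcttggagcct

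The granin promoters of CHGB and SCG2 each held 1 cAMP response element, at positions -72 to -65 and -68 to -61 from the transcription start. These letters, which are their own reverse complement, occurred in 588 of 32851 windows of 27025 genes (1.79%), and in none of the other 9 windows of the members. The GC box stood in the windows of KNDC1 (2 matches), CADPS2 (3 matches), CHGB (2 matches) and VSNL1 (1 match), against 35.7% of all windows. Of the other letters searched on both strands, the TATA box TATAAA was in 1 window of CNTN1 (13.6% of all windows), the E box CAGATG was in VSNL1 and CADPS (17.2%), and the E box CAGCTG was in CHGB (16.3%). The palindromic NFI site was in no window of a member and in 0.0365% of all. The CADPS2 window was the richest of the 11 in G and C, with 79.7% GC and 54 CpG pairs, whereas the KNDC1 window had 56.3% GC and 4 CpG pairs and the median window of all genes 52.7% GC. A match describes the letters of a window and says nothing of a factor bound there.

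Of the 13 probes, 9 were detected on all 4 arrays and entered the fit, and each of the 8 genes had at least 1 of them. The other 4 probes, 3 of KNDC1 and 1 of SCG2, were detected on no array, with intensities of 63.7 to 112.6. In the posterior lobe 8 of the 9 tested probes, which include 2 of CADPS2, were lower and 1, DNER, was higher, with a median log2 difference of -0.16. Of all tested probes 49.4% were lower, with a median of 0.0023. Of the probes as bright as the members 49.1% were lower, with a median of 0.0033. The study counted a gene as differential when it changed by more than 1.2-fold and its unadjusted p-value was under 0.05. Here the p-value of this criterion was that of limma, unless another test is named. By it 2 member probes met the criterion, KNDC1 and 1 of 2 CADPS2 probes, both lower in the posterior lobe. Over all 21726 tested probes the criterion called 8.29% in either direction and 5% as lower in the posterior lobe. Among the 5442 probes with a mean log2 signal of at least 11, as bright as the members, it called 3.09% as lower. With the test named in the paper's methods, KNDC1 still met the criterion and the CADPS2 probe did not. That test called 3.41% of all tested probes in either direction. Because the lobe contrast selected the members, nothing is read from these counts. No member probe passed a Benjamini-Hochberg adjusted p-value of 0.05 in limma, with values from 0.149 to 0.939, against 0.106% of all tested probes. This depended on the setting, since KNDC1 (0.00903) and the dimmer CADPS2 probe (0.035) passed it with the replicate number as a block. So did 588 of the 21726 tested probes. Fits with 1 array left out keep 1 array in a lobe, so their adjusted p-values are not read here. Both posterior arrays lay below both anterior arrays for 5 member probes, an arrangement found for 21.5% of all tested probes, and the arrays of the lobes overlapped for the other 4.

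**Figure D1:**
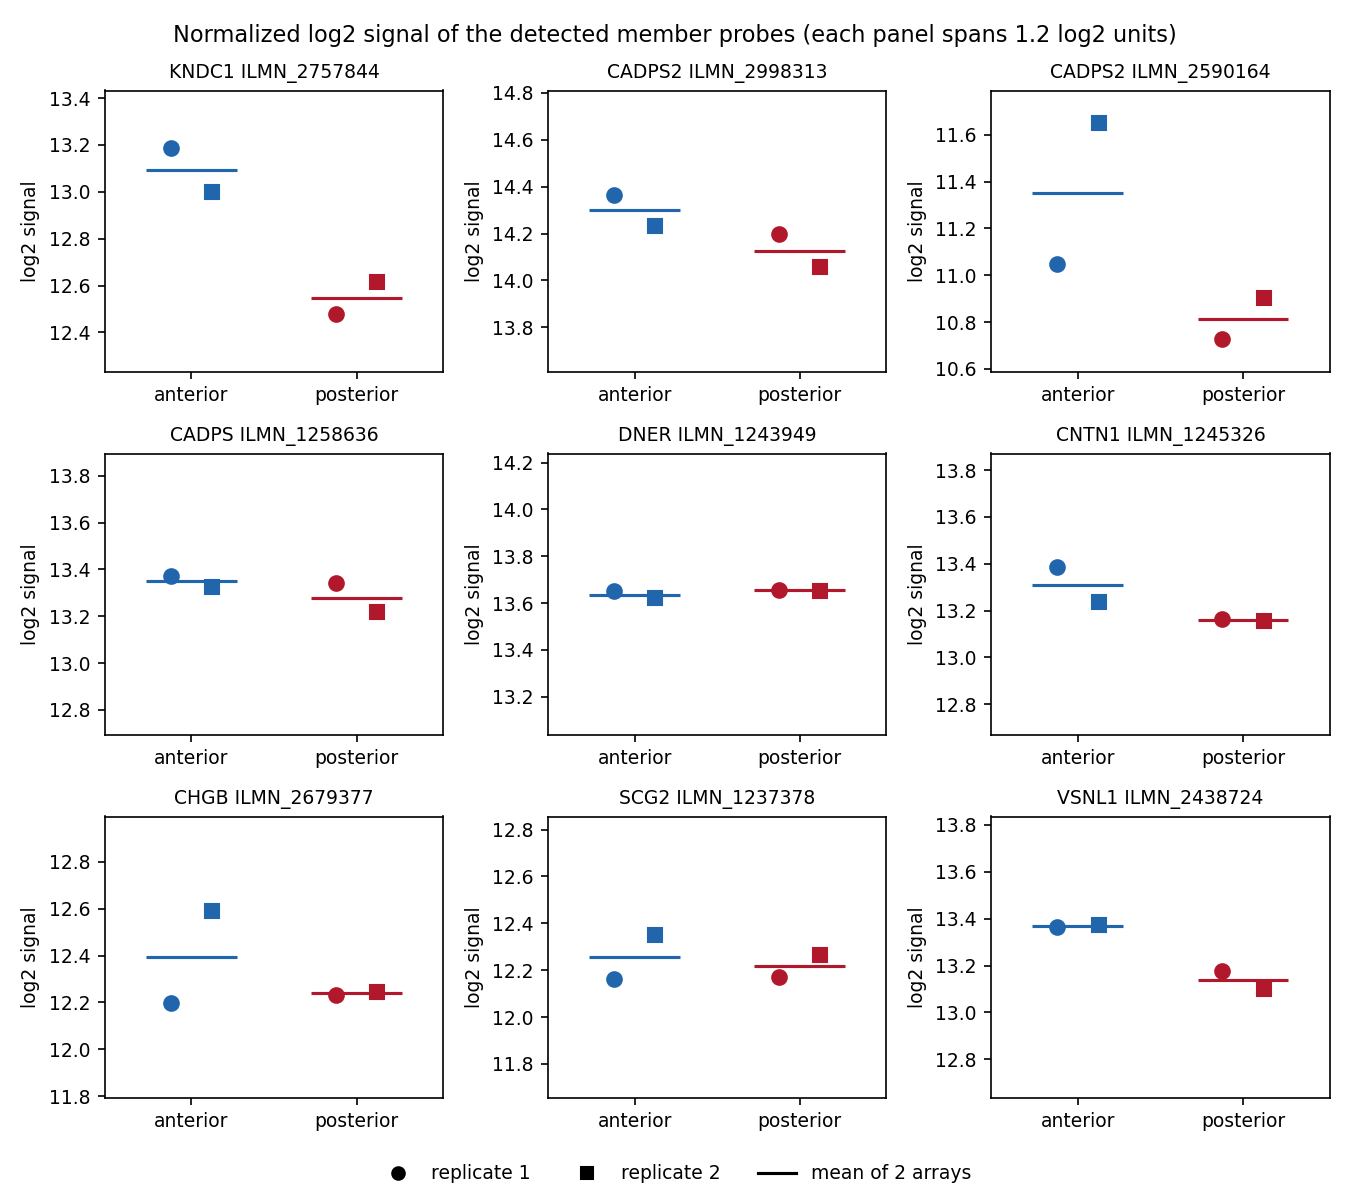
Normalized log2 signal of the 9 detected member probes, 1 panel per probe, with the lobe on the horizontal axis, circles for replicate 1, squares for replicate 2 and a line at the mean of 2 arrays. The axes are of equal span and the levels of different probes are not to be compared. The lobes are apart by 0.38 log2 units in the KNDC1 panel, whereas in the DNER panel all 4 arrays lie between 13.62 and 13.66.

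KNDC1, the exchange factor, showed one of the largest differences among the members, beside the dimmer CADPS2 probe. Its detected probe, ILMN_2757844, read 10006.5 and 7544.8 in the anterior lobe and 5576.3 and 6400.1 in the posterior lobe, in units of fluorescence intensity as deposited. Both posterior arrays were low and both anterior arrays high, with no overlap. After quantile normalization the log2 signal was 13.09 ± 0.13 (SD, n = 2) in the anterior lobe and 12.55 ± 0.097 in the posterior lobe, a log2 difference of -0.54 (SE 0.091, 95% interval -0.77 to -0.32) and a percent change of -31.4%. In a dissected lobe, fewer cells that express a gene and less of its RNA per cell cannot be told apart. The nearest arrays of the lobes were still 0.38 log2 units apart. The 3 other KNDC1 probes were at background in both lobes, so the difference rests on 1 probe.

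Of the CAPS genes, CADPS2 was lower in the posterior lobe on both of its probes, but by different amounts. The brighter probe, ILMN_2998313, read 22365.7 and 17870.3 in the anterior lobe against 18752.3 and 17398.7 in the posterior lobe. These arrays overlapped before normalization, and after it the lobes were apart by only 0.037 log2 units, with a log2 difference of -0.17 (SE 0.075, interval -0.36 to 0.012). That difference was -0.10 without posterior replicate 2, -0.11 without anterior replicate 1 and -0.24 without posterior replicate 1. The dimmer probe, ILMN_2590164, read 2278.5 and 2986.9 in the anterior lobe and 1644.6 and 1945.3 in the posterior lobe, so that both posterior arrays were low. Its log2 difference was -0.54 (SE 0.20, interval -1.02 to -0.047) with a percent change of -31.0%, and its anterior arrays spread more (SD 0.42) than those of any other tested member probe. Without anterior replicate 2 this difference was -0.23 and no longer met the criterion, and without anterior replicate 1 it was -0.83.

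CADPS, the paralogue of CADPS2, differed little between the lobes. Its probe read 11398.3 and 9401.8 in the anterior lobe and 10235.1 and 9712.0 in the posterior lobe, with the posterior arrays between the anterior ones. The log2 difference was -0.070 (SE 0.069), with an interval from -0.24 to 0.10 that includes 0 and leaves room for a change of at most 1.2-fold.

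The granins differed by less than the spread between their arrays. CHGB, the chromogranin, read 5060.2 and 5698.8 in the anterior lobe against 4696.2 and 4936.2 in the posterior lobe, where both arrays were lower as deposited. After normalization the arrays overlapped, and the log2 difference was -0.16 (SE 0.13, interval -0.48 to 0.17). This value rested on anterior replicate 2, since it was 0.040 without that array and -0.35 without anterior replicate 1, the latter past the criterion. SCG2, secretogranin II and the precursor of secretoneurin, read 4943.6 and 4832.0 in the anterior lobe and 4502.6 and 5028.0 in the posterior lobe, with overlapping arrays. Its log2 difference was -0.036 (SE 0.090, interval -0.26 to 0.18), and it was above 0 without anterior replicate 2 (0.058) or posterior replicate 1 (0.012). With all 4 arrays, neither of the members whose promoters hold the cAMP response element met the criterion.

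Of the surface proteins, DNER was the member closest to equality between the lobes. It read 13808.7 and 11645.4 in the anterior lobe and 12797.3 and 13001.9 in the posterior lobe, and the normalized log2 signal was 13.64 ± 0.023 and 13.65 ± 0.0046. The log2 difference of 0.018 (SE 0.055) had an interval from -0.12 to 0.15. CNTN1, a GPI-anchored adhesion protein of axons, read 11530.2 and 8870.0 against 9104.4 and 9312.3, overlapping as deposited. After normalization both posterior arrays were lower by a gap of 0.069, and the log2 difference was -0.15 (SE 0.072, interval -0.32 to 0.029). It was -0.074 without anterior replicate 1 and -0.22 without anterior replicate 2.

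VSNL1, the calcium sensor, differed by a small amount with little spread. It read 11273.3 and 9758.6 in the anterior lobe and 9143.1 and 8937.5 in the posterior lobe, where both arrays were low. The log2 difference was -0.23 (SE 0.062, interval -0.38 to -0.077) with a percent change of -14.7%, and the nearest arrays of the lobes were 0.19 apart. VSNL1 lay just outside the fold limit of the criterion at 1.17-fold, and the dimmer CADPS2 probe lay inside it at 1.45-fold.

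**Figure D2:**
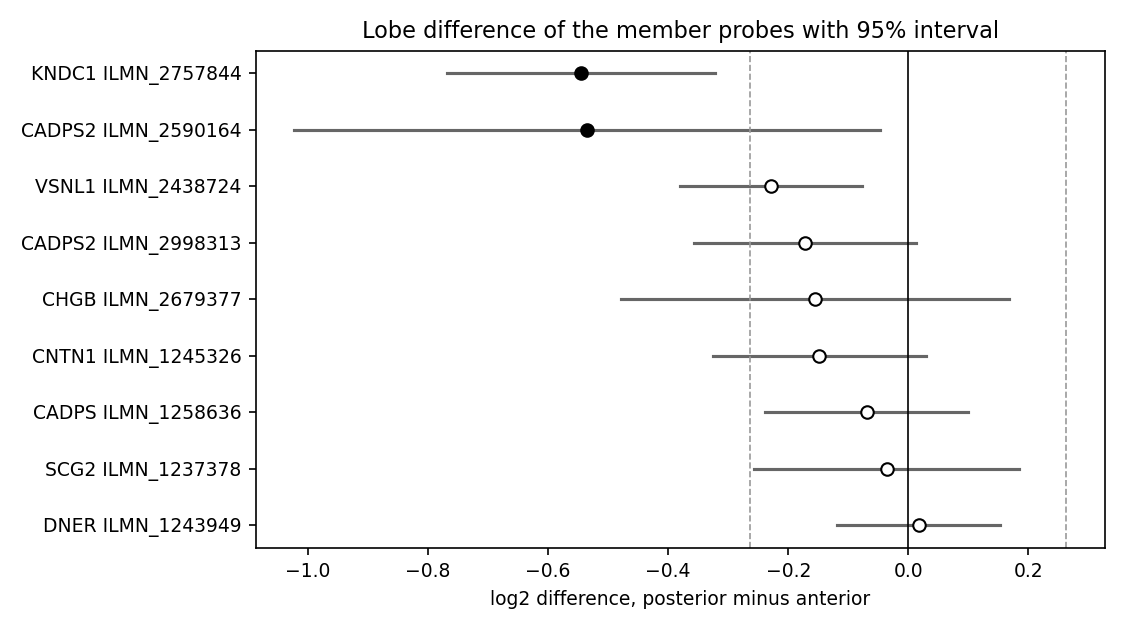
Log2 difference, posterior minus anterior, of the 9 tested member probes with its 95% interval from limma. Filled points met the criterion of the study with the limma p-value, open points did not, and the dashed lines stand at 1.2-fold. KNDC1 and the dimmer CADPS2 probe stand near -0.54, and 6 of the 9 intervals include 0.

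How far a member's difference rested on single arrays varied between the members. KNDC1 met the criterion under all 15 other settings that keep the 1.2-fold limit, and its log2 difference ranged from -0.64 to -0.45 when 1 array was left out. KNDC1 was chosen by this same contrast, and changes of floor, detection filter, test or block could not alter its difference. The count of settings is therefore no measure of stability. At a 1.5-fold limit KNDC1 did not meet the criterion. The dimmer CADPS2 probe met it under 10 of 15, with a range of -0.83 to -0.23. This probe missed it without posterior replicate 1 (-0.45), posterior replicate 2 (-0.62) or anterior replicate 2. With every array kept, it also missed it with a common 75th percentile and with the test named in the paper's methods. VSNL1 kept a difference between -0.27 and -0.18 over all 15 and met the criterion only without posterior replicate 1 (-0.27). The differences of CADPS, CNTN1 and the brighter CADPS2 probe were below 0 and that of DNER above 0 under all 15 settings, without meeting the criterion.

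**Figure D3:**
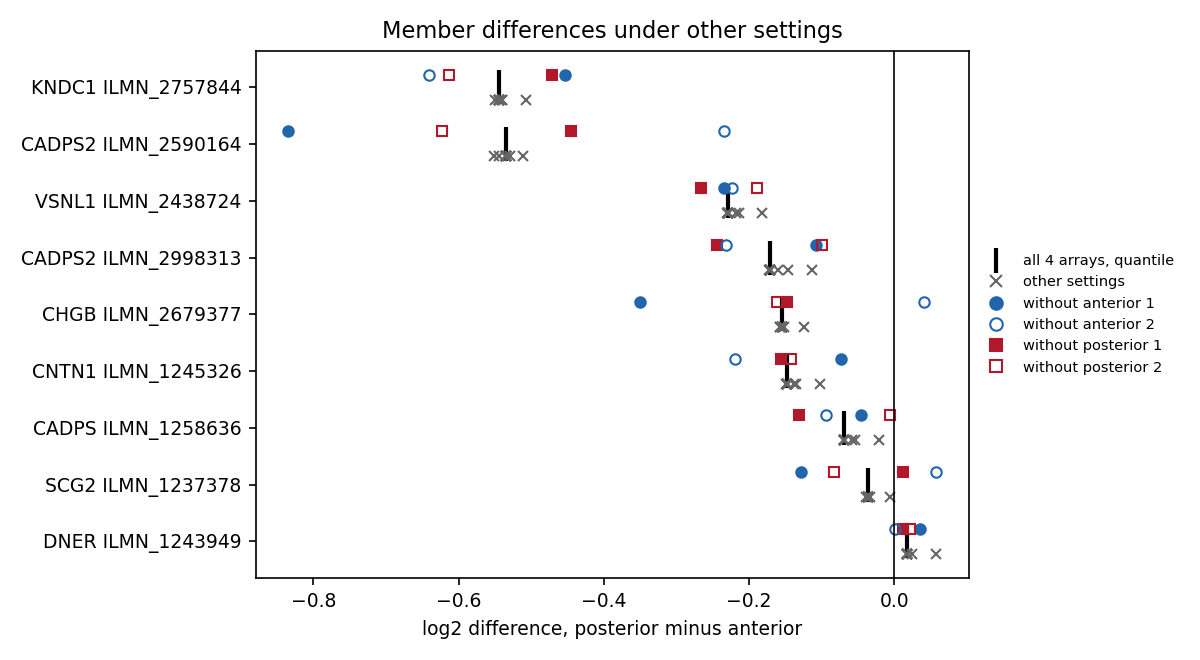
Log2 difference, posterior minus anterior, of each tested member probe under the main setting (vertical bar), under settings that keep all 4 arrays (crosses) and with 1 array left out (circles and squares). KNDC1 stays between -0.64 and -0.45, and CHGB and SCG2 cross 0 when anterior replicate 2 is left out, SCG2 also without posterior replicate 1.

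The other genes of the members' families and pathways and of the granule neuron stages were taken from 7 lists, with the brightest tested probe for each gene, and with all 4 arrays and no block none of the 106 different genes tested in these lists passed an adjusted p-value of 0.05 in limma. With the replicate number as a block 10 of 106 passed it, beside 588 of all 21726 tested probes. Without normalization 1, NTF3, passed it, beside 123 of all tested probes. Adjusted p-values of fits with 1 array left out, which keep 1 array in a lobe, are not read here. At an unadjusted p-value under 0.05, the lists held 6 maturation, 2 progenitor, 2 dense core vesicle, 5 contactin and Notch, 4 calcium sensor and 2 exchange factor genes and no migration gene. The share of all tested genes at that threshold was not counted, so nothing is read from these numbers. The criterion called 7.92% of all 15615 genes with a tested probe, and the median log2 difference of these genes was 0.0079.

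Among 21 exchange factor genes tested, which include MAP2 as the partner of KNDC1, 2 met the criterion, both lower in the posterior lobe, and the median log2 difference was -0.10. RASGRF1, a calcium-activated exchange factor of neurons, had a normalized log2 signal of 13.22 and 13.21 in the anterior lobe and 12.63 and 12.80 in the posterior lobe. The lobes did not overlap, and the log2 difference was -0.50 (SE 0.078, limma adjusted p = 0.123). Of its 4 tested probes 3 met the criterion, at -0.50, -0.50 and -0.45, and the dimmest did not (-0.17, SE 0.13). RALGDS, which activates the Ras relative Ral, had a log2 difference of -0.72 (SE 0.24, adjusted p = 0.414), which was -0.35 without anterior replicate 2 and -1.09 without anterior replicate 1. It missed the criterion with the methods' t-test and without posterior replicate 1 (-0.70) or 2 (-0.73).

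The dense core vesicle list, the machinery and cargo with which CADPS, CADPS2, CHGB and SCG2 act, had a median log2 difference of -0.036 over 18 tested genes, and only 1 met the criterion. The median was 0.0079 with a common 75th percentile and 0.010 without anterior replicate 2. The called gene was NTF3, which encodes the neurotrophin NT-3 and was higher in the posterior lobe, opposite in sign to CADPS2. Its log2 signal was 7.90 and 8.08 in the anterior lobe and 9.12 and 8.86 in the posterior lobe, apart on all arrays, with a log2 difference of 1.00 (SE 0.15, adjusted p = 0.110), 2.00-fold. The lowest of the list was PTPRN, a membrane protein of the vesicles, at -0.17 (SE 0.11, adjusted p = 0.647), which did not meet the criterion. BDNF, outside the rule for named genes and taken up after its value was seen because CADPS2 acts in its release, had a difference of -0.092 with an interval from -0.43 to 0.24.

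Of 20 tested contactin and Notch genes, 5 met the criterion, 3 lower and 2 higher in the posterior lobe, and the median was -0.058. CNTN6, the contactin NB-3 of granule cells, had log2 signals of 11.48 and 11.55 in the anterior lobe against 10.84 and 10.89 in the posterior lobe. It had the lowest adjusted p-value of the 7 lists (0.0756) with a log2 difference of -0.65 (SE 0.082), and it met the criterion under all 15 other settings. Among these, changes of floor, detection filter, test and block could not alter the CNTN6 difference. CNTN5 was higher in the posterior lobe at 0.38 (SE 0.15, adjusted p = 0.468). The contactin-associated proteins were split, with CNTNAP4 higher on all 3 of its probes (0.43, 0.38 and 0.36) and CNTNAP2 lower on 2 probes (-0.36 and -0.32) and not past the criterion on the dimmest (0.19, SE 0.13). JAG2, a Notch ligand named after its value was seen, was the fifth at -0.32 (SE 0.13, adjusted p = 0.493). With the methods' t-test, CNTNAP4, CNTN5, CNTNAP2 and JAG2 missed the criterion. CNTN5, CNTNAP2 and JAG2 also missed it without normalization. So did CNTN5 with cyclic loess normalization, and JAG2 with a common 75th percentile or neqc background correction. Without posterior replicate 1, CNTNAP4 (0.32), CNTN5 (0.25), CNTNAP2 (-0.30) and JAG2 (-0.39) missed the criterion. CNTN5 also missed it without anterior replicate 2 (0.28), CNTNAP2 without anterior replicate 1 (-0.24) or posterior replicate 2 (-0.42), and JAG2 without anterior replicate 2 (-0.23) or posterior replicate 2 (-0.26).

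The neuronal calcium sensor family of VSNL1 had the lowest median of the 7 lists, -0.26, with 4 of 8 tested genes past the criterion, all lower in the posterior lobe. They were the potassium channel interacting proteins KCNIP1 (-0.75, SE 0.18), KCNIP2 (-0.59, SE 0.12) and KCNIP3 (-0.27, SE 0.079) and hippocalcin, HPCA (-0.59, SE 0.15), with limma adjusted p-values from 0.229 to 0.368. HPCA had log2 signals of 12.41 and 12.87 in the anterior lobe against 12.05 and 12.06 in the posterior lobe, so the anterior arrays spread widely and all lay above the posterior ones. KCNIP1 had 8.90 and 9.13 in the anterior lobe against 8.05 and 8.47 in the posterior lobe, also without overlap. KCNIP2 was detected on 3 of 4 arrays, and its difference was -0.98 with neqc background correction. HPCA and KCNIP1 missed the criterion with the methods' t-test, and KCNIP3 missed it without normalization or with a common 75th percentile. The HPCA difference was -0.36 without anterior replicate 2. KCNIP1 (-0.55) and KCNIP3 (-0.29) missed the criterion without posterior replicate 1, and KCNIP3 also without posterior replicate 2 (-0.25) or anterior replicate 2 (-0.22).

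**Figure D4:**
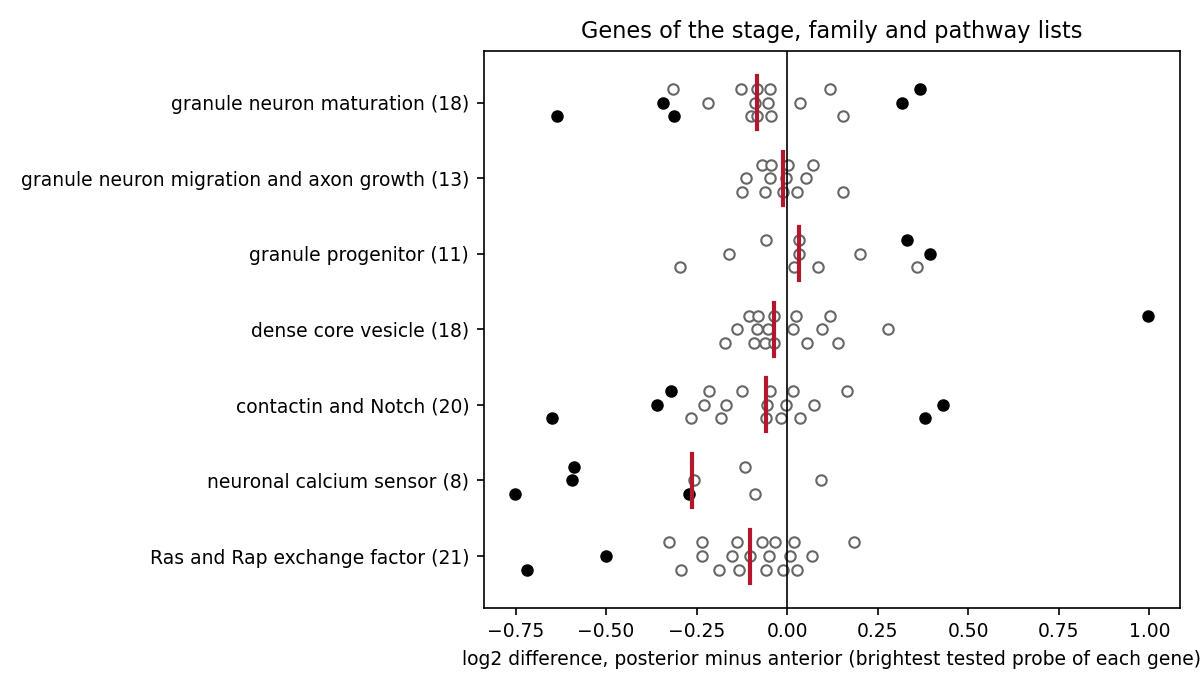
Log2 difference, posterior minus anterior, of each tested gene in 7 lists of granule neuron stages and of the members' families and pathways, with the number of tested genes in brackets. Filled points met the criterion of the study with the limma p-value. The vertical bars are medians, which are lowest for the neuronal calcium sensors (-0.26) and near 0 for migration and axon growth (-0.011). The point at 1.00 is NTF3.

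The lists of granule neuron stages had medians of either sign. Among 11 tested progenitor genes the median was 0.033 and 2 met the criterion, both higher in the posterior lobe, the chemokine receptor CXCR4 (0.39, SE 0.16, limma adjusted p = 0.493) and the replication clamp PCNA (0.33, SE 0.12, adjusted p = 0.441). With all 4 arrays, both missed the criterion without normalization and with the methods' t-test, and CXCR4 also with cyclic loess normalization. CXCR4 missed it without posterior replicate 1 (0.19) and was 0.60 without posterior replicate 2. PCNA missed it without posterior replicate 1 (0.39), posterior replicate 2 (0.27) or anterior replicate 2 (0.25). None of 13 migration and axon growth genes met it in limma, also none at an unadjusted p-value under 0.05, and they ranged from -0.13 for the adhesion protein NRCAM (SE 0.096) to 0.15 for the growth cone protein GAP43 (SE 0.12). Their median of -0.011 was 0.040 without posterior replicate 1 and 0.0040 without anterior replicate 2. Without anterior replicate 1, GAP43 was 0.28 and met the criterion, and without anterior replicate 2 the NRCAM difference was 0.0040.

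Of 18 tested maturation genes, 5 met the criterion, 3 lower and 2 higher, and the median was -0.083. ETV1, a transcription factor of maturing granule cells, was lower on all 3 of its probes (-0.64, -0.46 and -0.50), with log2 signals on the brightest of 10.15 and 10.41 in the anterior lobe against 9.75 and 9.54 in the posterior lobe. TIAM1, an exchange factor for Rac, was lower by the same criterion (-0.34, SE 0.086, adjusted p = 0.306), as was IL16 (-0.31, SE 0.098, adjusted p = 0.396), named after its value was seen. CALB2, the calcium buffer calretinin, was higher, with log2 signals of 13.17 and 13.21 in the anterior lobe against 13.56 and 13.55 in the posterior lobe and a difference of 0.37 (SE 0.058, adjusted p = 0.127). GRIN2C, an NMDA receptor subunit, was higher by 0.32 (SE 0.12, adjusted p = 0.470) at a signal near background, where it was detected on 3 of 4 arrays, and its difference was 0.54 with neqc background correction. With the methods' t-test, ETV1, TIAM1 and GRIN2C missed the criterion, and without normalization IL16 and GRIN2C missed it. Without posterior replicate 2, TIAM1 (-0.27), IL16 (-0.28) and GRIN2C (0.41) missed it. IL16 (-0.35) and GRIN2C (0.23) missed it without posterior replicate 1, the latter also without anterior replicate 1 (0.21).

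Markers of other cells differed between the lobes beside the members. Of 11 tested oligodendrocyte genes 10 met the criterion, all lower in the posterior lobe, with a median log2 difference of -0.86, and their summed normalized signal was 116926 to 118795 in the anterior lobe against 77256 to 82689 in the posterior lobe. Of 8 meningeal fibroblast genes 5 met it, all higher in the posterior lobe, with sums of 6625 to 7281 against 10995 to 11900. The Purkinje cell list had 11 tested genes with a median of -0.067, 1 higher and none lower by the criterion, and sums of 68878 to 71613 against 66199 to 66923, with CALB1, PCP4 and CAR8 detected on no array. The GABAergic interneuron list had 6 tested genes with a median of -0.060, 1 of them past the criterion and higher (LHX5, which the Purkinje list also holds), and sums of 52299 to 53236 against 47981 to 48261, with GAD2, PAX2 and SLC6A5 detected on no array. Of 6 unipolar brush cell genes, which include CALB2, 2 met the criterion and were higher, with sums of 14007 to 15093 against 16631 to 17353 and none undetected. The choroid plexus sum differed most between replicates, 1131 and 11324 in the anterior lobe and 748 and 4209 in the posterior lobe. Of its 3 tested genes 1, CLIC6, met the criterion and was lower in the posterior lobe (-0.89, SE 0.27, limma adjusted p = 0.386), which was also the median of the list, and the median was 0.28 without anterior replicate 2. The astrocyte and Bergmann glia, endothelial and microglia lists, of 10, 7 and 6 tested genes, held none past the criterion. The part of these cells in the differences of KNDC1, CADPS2 and the other members was not tested.

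Among 1535 probes of other genes detected on all 4 arrays and past the criterion, those most like KNDC1 were sought by the root mean square distance between log2 signals centred on each probe's mean over the 4 arrays. The 3 nearest were SLITRK1, a neuronal membrane protein (distance 0.036), a second RASGRF1 probe (0.0371) and 2310006M14RIK (0.0408), with log2 differences of -0.57, -0.50 and -0.51. For the brighter CADPS2 probe, which did not itself meet the criterion, they were HEATR3 (0.0515), PRKCBP1 (0.0584) and FIBP (0.0587), all between -0.29 and -0.27. With 4 arrays and a choice by the same lobe contrast, this is a description of the arrays alone.

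**Figure D5:**
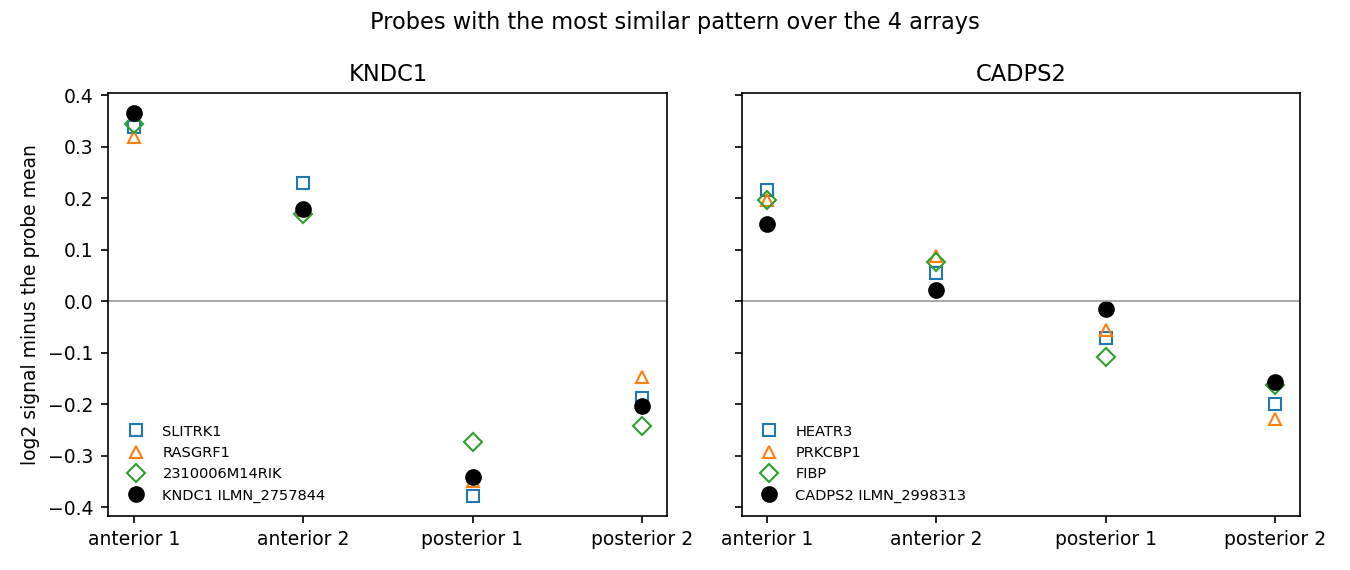
Log2 signal minus the mean of each probe over the 4 arrays, for KNDC1 (left) and the brighter CADPS2 probe (right) with the 3 probes most like each. The KNDC1 probes lie above 0 on both anterior and below 0 on both posterior arrays, with posterior replicate 1 the lowest, whereas posterior replicate 2 is the lowest for CADPS2.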

How the data were processed

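RNA of 2 anterior and 2 posterior samples was labelled as biotinylated cRNA, and hybridisation, scanning and the first analysis were outsourced by the authors. The deposited probe table, exported with GenomeStudio 1.9.0, holds per array the mean intensity of each probe, the standard deviation of intensity over its beads, the count of beads and the detection score, deposited as a fraction, from which the p-value of detection is read. These values were not normalized between arrays, and 16 further per-sample columns were not used. The genome build of the probes is not given in the sources used here. Intensities were quantile normalized, floored at 1 and taken to log2. The 21726 probes detected (p-value under 0.05) on 2 or more of the 4 arrays were fitted with limma 3.58.1 in R 4.3.3 (lobe only, intensity trend) and adjusted by Benjamini-Hochberg over all of them. The fit was also run on simulated data with independent noise on each array, and nothing is read from that run here. Alternatives changed background correction, normalization, floor, detection filter, fold limit (1.5), test, replicate block and arrays.

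The members and lists were chosen with earlier results of these data known. The text names every member probe, the genes of each list past the criterion up to 4 (or its highest and lowest gene where fewer than 2 passed), and the 3 probes most like KNDC1 and CADPS2. Of 219 list genes, 216 had a symbol on the array, 4 of them by an older name. Each member value averages 28 to 47 beads, with a standard error over beads of 2.14% to 4.70%. Promoters and positions came from RefSeq tables (GRCm38.p6), matched by symbol for all 8 members.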

Additional observations from a re-analysis of the deposited data

How the results depend on the processing

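The count of 2 member probes past the criterion became 1 with a common 75th percentile in place of quantile normalization and with the methods' t-test, 0 at a 1.5-fold limit, and 1 to 3 with 1 array left out (1 without anterior or posterior replicate 2). The 5 maturation genes became 3 without normalization, 2 with the t-test, 1 at 1.5-fold, and 2 to 6 with 1 array left out (3 and 2 without posterior replicate 1 or 2). The 1 dense core vesicle gene became 2 without anterior replicate 1 (range 1 to 2). With the replicate number as a block these counts were 2, 6 and 2, and KNDC1 (0.00903), the dimmer CADPS2 probe (0.035) and 10 of 106 list genes, among them NTF3 (0.00392) and CNTN6 (0.004), passed an adjusted p-value of 0.05. NTF3 also passed it without normalization (0.02). The labels do not tie equal numbers to a shared animal or batch, and with 2 pairs the correlation between the lobes of replicate 1 minus replicate 2 was 0.458. Of 135 member differences under other settings, 131 moved by less than the spread between replicates, and no value past the criterion changed sign. Changes of floor, detection filter, test and block could not alter these differences. Leaving out an array could move a mean by at most that spread, apart from renormalization. The tally is therefore no measure of stability, and the list medians below were tallied by a similar rule. For the 19 named list genes past the criterion, a comparison added after seeing the data, 232 of 282 differences stayed past it, 50 did not and none changed sign. The other 3 met it once (GAP43 without anterior replicate 1). Of 288 list medians, 24 moved by more than the spread between replicates and 20 changed sign. Over all probes the criterion called 1802, and 741 by the t-test (0 after adjustment), 2818 with the block, 4677 without anterior replicate 1, and 766 and 811 without posterior replicate 1 or 2. Adjusted calls were 23, and 588 with the block, 2538 without anterior replicate 1, 221 without anterior replicate 2, 123 without normalization, 73 without the filter on dim probes and 0 without either posterior array. The common percentile gave 850 lower of 1827 calls against 1086 of 1802. Signal over background limits GRIN2C (0.32, and 0.54 with neqc) and KCNIP2 (-0.59, and -0.98 with neqc).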
